A study of Mus musculus with 12 samples.

Results

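The 10 genes described here encode the receptor chains for interleukin 4 (IL-4), IL-13, IL-31, IL-7, oncostatin M and thymic stromal lymphopoietin (TSLP), and TSLP itself, and they were compared between mouse skin with and without epidermal Pparg. The members were the rows of the deposited count table with the symbols Il31ra, Osmr, Il6st, Il4ra, Il13ra1, Il13ra2, Il2rg, Il7r, Crlf2 and Tslp, and all 10 were present among 14533 named genes. RNA was sequenced from 6 wild-type (WT) and 6 Pparg-/-epi mice on a C57BL/6 background. Every mouse carried floxed alleles of Pparg on both chromosomes, and the Pparg-/-epi mice also carried a Cre recombinase driven by the cytokeratin 14 promoter, which is active in basal keratinocytes and in the hair follicle and sebaceous gland that arise from them. WT mice lacked the Cre. No mouse was treated, ages ran from 8 to 13 weeks in both groups, and there were 3 females and 3 males among the WT mice and 4 females and 2 males among the Pparg-/-epi mice. Frozen back skin without lesions was scraped down to the superficial dermis, so that the RNA came from keratinocytes, hair follicles, glands, resident immune cells and some dermis. In such bulk samples fewer cells of a type and less RNA per cell cannot be told apart.

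IL-4 and IL-13 are cytokines of type 2 inflammation, the form of immunity that dominates in atopic dermatitis. IL-4 acts through a pair of IL4RA and the common gamma chain (Il2rg) on blood cells, and IL-4 and IL-13 both act through IL4RA with IL13RA1 on keratinocytes and other tissue cells, while IL13RA2 binds IL-13 tightly and is known mainly as a decoy. TSLP is made by keratinocytes and is read by CRLF2 together with the IL-7 receptor chain (Il7r), which in turn pairs with the gamma chain to bind IL-7. IL-31, a cytokine known for causing itch, is bound by IL31RA with the oncostatin M receptor chain (Osmr), and Osmr pairs with gp130 (Il6st) to bind oncostatin M. These receptors signal through JAK kinases and STAT transcription factors.

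Depth ran from 10120840 to 16947632 assigned reads in the WT libraries and from 11272135 to 18851255 in the Pparg-/-epi libraries. Summed keratinocyte markers made up 15294 CPM (counts scaled to the library total) in WT replicate 2 and at least 25614 CPM in the other 11 libraries, and the same WT library had the highest summed macrophage markers (738 CPM) and Langerhans and dendritic cell markers (2492 CPM). Values without this library are given where they change the call of a member or the count of a list described here. Counts of the whole Pparg gene were 5 to 269 for WT and 16 to 107 for Pparg-/-epi mice, and they do not check the genotype, because recombination leaves a shortened transcript that is counted too. The RNA integrity number (RIN) was 5.9 to 8.6 for WT and 5.7 to 8.6 for Pparg-/-epi mice. The mouse names hold a middle number whose meaning is not given in the sources used here, and it split the mice into a lower set (192 to 222, with 2 WT and 4 Pparg-/-epi mice) and a higher set (225 to 226, with 4 WT and 2 Pparg-/-epi mice), and the RIN was 7.4 to 8.6 in the lower and 5.7 to 7.1 in the higher set, so RIN and name number cannot be told apart.

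Il31ra fell and Il4ra rose in Pparg-/-epi skin, and the other 8 genes did not pass the thresholds. A gene was called altered when its log2 fold change was at least 0.6 in either direction with an adjusted p under 0.05 by the edgeR quasi-likelihood test with Benjamini-Hochberg adjustment over all 14533 genes. Over all genes, 1493 (10.3%) were altered, with 754 (5.19%) higher and 739 (5.08%) lower in Pparg-/-epi mice. Without WT replicate 2 there were 1303 higher and 946 lower, so any list count without that library stands beside more calls over all genes. Among the 10 members 1 was higher, 1 lower and 8 neither. An adjusted p under 0.05 at any fold change was reached by 3 members, against 15.4% of all genes. The groups did not overlap in CPM for 1 member, against 7.9% of all genes. The median log2 fold change was 0.15 over the members and -0.01 over all genes.

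**Figure D1:**
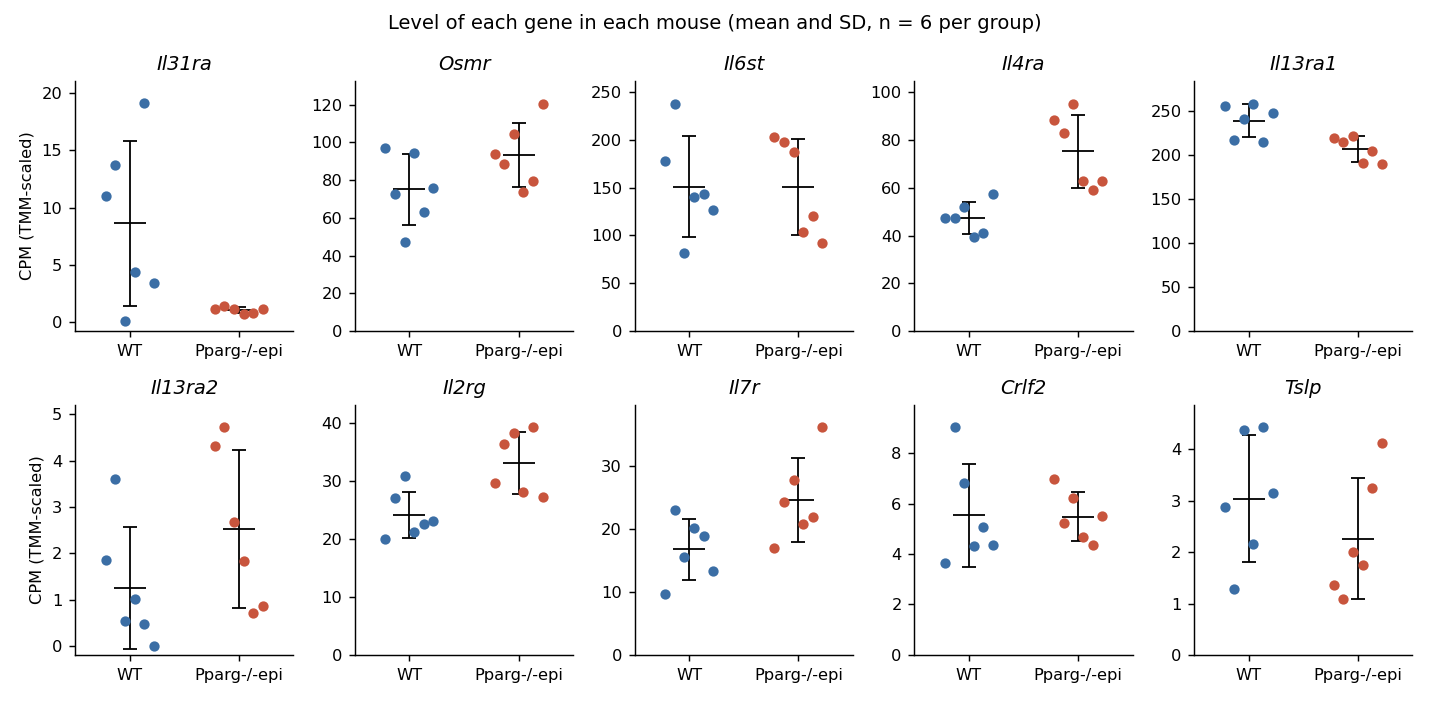
Level of each gene in each mouse in CPM scaled by the trimmed mean of M-values (TMM), with points for the 6 mice of each group and bars for the mean and SD. Il4ra is the only panel without overlap between the groups, and Il31ra is near 1 CPM in all 6 Pparg-/-epi mice but spread from 0.107 to 19.1 CPM in the WT mice.

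**Figure D2:**
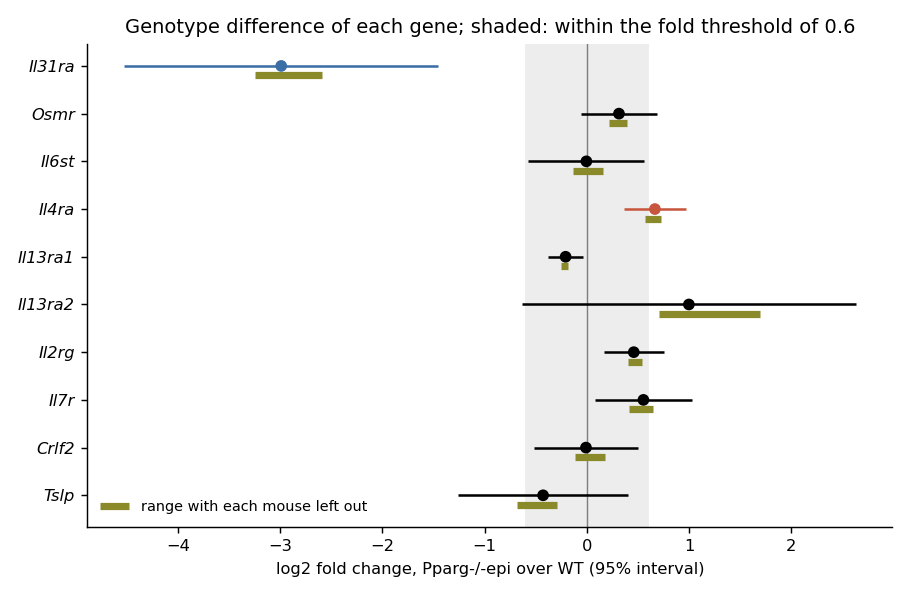
Log2 fold change of each gene (Pparg-/-epi over WT, horizontal axis) with its 95% interval and, as a thick bar, the range of values when each of the 12 mice was left out in turn. The shaded band marks changes smaller than the threshold of 0.6, and the thick bars of Il4ra and Il7r cross its upper edge.

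Promoter sequences from RefSeq (GRCm38.p6, the assembly of mm10), from 250 bases before to 50 bases after the start of each gene, were matched for 9 of the 10 genes, and are shown for the 2 genes that were altered, with the matched motif in capitals. The Il31ra window lies at chr13:112580613-112580912 on the minus strand, and its capitals mark the STAT motif TTCNNNGAA, which starts 191 bases before the gene start.
Il31ra: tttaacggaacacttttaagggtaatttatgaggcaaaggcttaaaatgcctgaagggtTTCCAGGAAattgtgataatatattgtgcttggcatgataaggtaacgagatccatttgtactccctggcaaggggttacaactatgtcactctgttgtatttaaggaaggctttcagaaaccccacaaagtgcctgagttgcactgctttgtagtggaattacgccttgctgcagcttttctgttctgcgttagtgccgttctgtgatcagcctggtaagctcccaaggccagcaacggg
The Il4ra window lies at chr7:125552021-125552320 on the plus strand, and its capitals mark the reverse complement of the NF-kB motif GGGNNTTTCC, at base 21 from the RefSeq start (125552271), which lies 11 bases before the gene start of the count table.
Il4ra: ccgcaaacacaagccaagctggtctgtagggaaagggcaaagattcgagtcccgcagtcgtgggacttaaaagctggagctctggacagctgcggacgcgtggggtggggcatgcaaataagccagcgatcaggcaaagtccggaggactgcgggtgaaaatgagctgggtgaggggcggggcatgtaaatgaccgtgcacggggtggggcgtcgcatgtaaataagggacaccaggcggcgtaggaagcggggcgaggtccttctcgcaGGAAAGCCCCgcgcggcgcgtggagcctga
Searched on both strands, TTCNNNGAA was present in 8.3% of 32851 promoter windows of the same length and in the windows of Il31ra and Il7r. GGGNNTTTCC was present in 1.63% of all windows and only in that of Il4ra among the 9. The AP-1 motif TGANTCA was in 7.81% of all windows and in those of Osmr and Il13ra2. The longer STAT spacing TTCNNNNGAA, found in 6.95% of windows, and the PPAR-RXR direct repeat AGGTCANAGGTCA, found in 0.0396%, matched none of the 9 windows. A match describes letters in a window and is not a bound site.

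The IL-31 receptor gene Il31ra (chr13:112522807-112580662, minus strand, mm10) fell most. In WT replicates 1 to 6 its levels were 11.1, 13.7, 0.107, 4.37, 19.1 and 3.40 CPM, from counts of 1 to 259. In Pparg-/-epi replicates 7 to 12 they were 1.14, 1.39, 1.15, 0.749, 0.814 and 1.20 CPM, from counts of 9 to 23. WT replicate 3, with a single count, lay below every Pparg-/-epi mouse, and the other 5 WT mice lay above them all. The log2 fold change was -2.99 (SE 0.71, adjusted p = 0.0139 by the edgeR quasi-likelihood test), from 8.63 ± 7.22 CPM (SD, n = 6) to 1.08 ± 0.246 CPM (SD, n = 6). The WT mice varied far more than the Pparg-/-epi mice, with a coefficient of variation of 83.6% against 22.9%. The gene remained altered with each of the 12 mice left out, with log2 fold changes of -3.24 (without WT replicate 3) to -2.59. In the 7 females alone it was -2.65 (adjusted p = 0.0314) and in the 5 males alone -3.39 (adjusted p = 0.394). Mean log2 CPM differed by -3.35 within the lower and by -1.38 within the higher name numbers.

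Sebaceous gland markers moved with Il31ra. Of 6 marker genes named for the gland 5 were listed, and 4 of those (Scd3, Awat1, Far2 and Fa2h) fell, while Elovl3 was at -2.91 on the log2 scale (adjusted p = 0.0637, edgeR). Their summed level was 533, 866, 19.0, 63.5, 313 and 28.4 CPM in WT replicates 1 to 6 and 1.58 to 9.70 CPM in the Pparg-/-epi mice. The 3 WT mice with the most sebaceous RNA were the 3 with the most Il31ra, and WT replicate 3 was the lowest WT mouse in both. This order was not particular to the gland. Summed markers of hair follicle stem cells, fibroblasts, endothelial cells and Schwann cells had the same top 3 WT mice, and the other marker lists did not. WT replicate 3 was also the lowest WT mouse in hair follicle stem cell (67.0 CPM), Schwann cell (100 CPM) and adipocyte markers (2.02 CPM). Among the Pparg-/-epi mice, where both were low, the top 3 had 1 mouse in common. In the Pparg-/-epi mice the mean levels of Scd3, Awat1, Far2 and Fa2h were 0.473, 0.210, 0.956 and 0.478 CPM. The deposited table kept only genes above 0.5 CPM in at least 6 mice. For Scd3, Awat1 and Fa2h this filter could be met through the WT mice alone, so their fall follows in part from the filter. The part of the gland's RNA in the Il31ra difference was not tested.

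**Figure D3:**
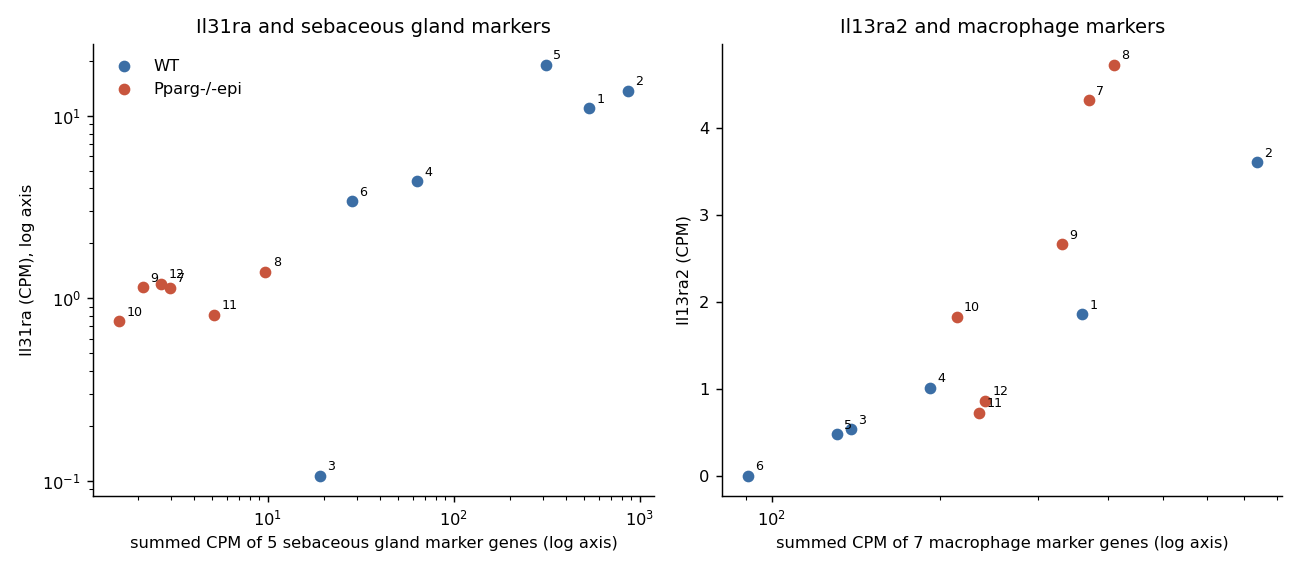
Level of Il31ra against the summed CPM of 5 sebaceous gland marker genes (left, both axes logarithmic) and level of Il13ra2 against the summed CPM of 7 macrophage marker genes (right, horizontal axis logarithmic), 1 point per mouse with its replicate number. WT replicates 1, 2 and 5 are highest on both axes on the left, all Pparg-/-epi mice lie at or below 9.70 CPM of sebaceous markers, and WT replicate 6 is lowest on both axes on the right.

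The genes whose levels followed Il31ra most closely were found by the SD over the 12 mice of the log2 ratio to it (log2 CPM with a prior count of 2). That SD was 0.673 for Fam57b, 0.873 for Pdzk1, 0.903 for Sema3e, 0.924 for Adcy1 and 0.925 for Col4a3, beside a median of 1.92 over all genes and an SD of 1.88 for Il31ra itself. Fam57b encodes a membrane protein of the TLC domain family, Pdzk1 a PDZ scaffold, Sema3e a secreted semaphorin, Adcy1 an adenylate cyclase and Col4a3 a basement membrane collagen chain. The study lists Pdzk1 among its sebaceous gland signature genes. Fam57b fell by 3.38 (SE 0.72, adjusted p = 0.00797), Pdzk1 fell by 2.53 (SE 0.77, adjusted p = 0.0421) and Adcy1 fell by 2.41 on the log2 scale (SE 0.49, adjusted p = 0.00600, all edgeR). Sema3e was at -1.40 (adjusted p = 0.200) and Col4a3 at -1.70 (adjusted p = 0.185) in log2 fold change.

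On the chromosome, 7 other listed genes lay within 500 kb of Il31ra, and 1 was altered. Ankrd55, an ankyrin repeat gene 138805 bases away, fell by 1.38 on the log2 scale (SE 0.28, adjusted p = 0.00656), from 1.83 ± 0.465 to 0.703 ± 0.252 CPM (SD, n = 6 each), with no overlap between the groups. Il6st, whose 3′ end faces that of Il31ra at a distance of 15947 bases, and Slc38a9, Ppap2a, Skiv2l2, Dhx29 and Gpx8 were not altered. A count of 1 in 7 is close to the 10.3% altered among all genes and is no result about this region.

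The partner chain Osmr (chr15:6813577-6874313, minus strand) did not pass the test. Its lowest, median and highest levels were 47.3, 74.1 and 97.2 CPM for WT and 73.8, 91.0 and 120 CPM for Pparg-/-epi mice. The groups overlapped, and the log2 fold change was 0.31 (SE 0.17, adjusted p = 0.252 by edgeR). The ratio of Il31ra to Osmr within each mouse, in counts per kb on a log2 scale, was -3.66 ± 2.31 in WT and -6.00 ± 0.239 in Pparg-/-epi mice (SD, n = 6 each), and the groups overlapped through WT replicate 3. The shared signalling chain Il6st (chr13:112464070-112506860, plus strand) had a lowest, median and highest level of 81.3, 142 and 238 CPM for WT and 92.1, 154 and 202 CPM for Pparg-/-epi mice. The means were the same, at 151 ± 52.6 CPM for WT and 151 ± 50.5 CPM for Pparg-/-epi mice (SD, n = 6 each). Its log2 fold change was -0.01 (SE 0.26, 95% interval -0.57 to 0.56, adjusted p = 0.993 by edgeR), an interval that reaches almost to the fold threshold on both sides.

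Il4ra (chr7:125552282-125579474, plus strand), the chain shared by the IL-4 and IL-13 receptors, was the member that rose. Its levels were 47.4, 47.5, 52.2, 39.6, 41.0 and 57.5 CPM in WT replicates 1 to 6. They were 88.3, 83.1, 95.3, 63.0, 59.2 and 62.9 CPM in Pparg-/-epi replicates 7 to 12. Every Pparg-/-epi mouse was above every WT mouse, but by a narrow margin for replicate 11, and replicates 7, 8 and 9 were the highest. The mean went from 47.5 ± 6.72 to 75.3 ± 15.5 CPM (SD, n = 6 each), with a log2 fold change of 0.66 (SE 0.14, 95% interval 0.36 to 0.97, adjusted p = 0.00744 by edgeR). The value lies close to the fold threshold. It dropped below it, with an adjusted p still under 0.05, with RIN in the fit (0.59, adjusted p = 0.0174), with the name number sets as blocks (0.58, adjusted p = 0.0177), without Pparg-/-epi replicate 7 (0.597, adjusted p = 0.0253) and without replicate 9 (0.568, adjusted p = 0.0236). The log2 fold change was 0.75 in females alone (adjusted p = 0.0716) and 0.41 in males alone (adjusted p = 0.318), and mean log2 CPM differed by 0.78 within the lower and 0.38 within the higher set. The interaction of genotype with sex did not pass the test for any member (adjusted p from 0.895 to 0.995, edgeR), and it passed for 0 of all genes, with 741 genes but 0 members at an unadjusted p under 0.05.

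The partner Il13ra1 (chrX:36112108-36171261, plus strand) was the most abundant member. Its lowest, median and highest levels were 214, 244 and 258 CPM for WT and 189, 209 and 221 CPM for Pparg-/-epi mice. On the log2 scale the fold change was -0.21 (SE 0.08, adjusted p = 0.0931 by edgeR and 0.0362 by DESeq2), a size below the fold threshold. Within each mouse the log2 ratio of Il4ra to Il13ra1 was -2.79 ± 0.219 in WT and -1.93 ± 0.213 in Pparg-/-epi mice (SD, n = 6 each), a difference of 0.86 without overlap between the groups. Il4ra was thus less abundant per length than Il13ra1 in all 12 mice, by a smaller margin in the Pparg-/-epi mice. The ratio of Il4ra to Il2rg, the partner on blood cells, differed by 0.19 and overlapped.

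**Figure D4:**
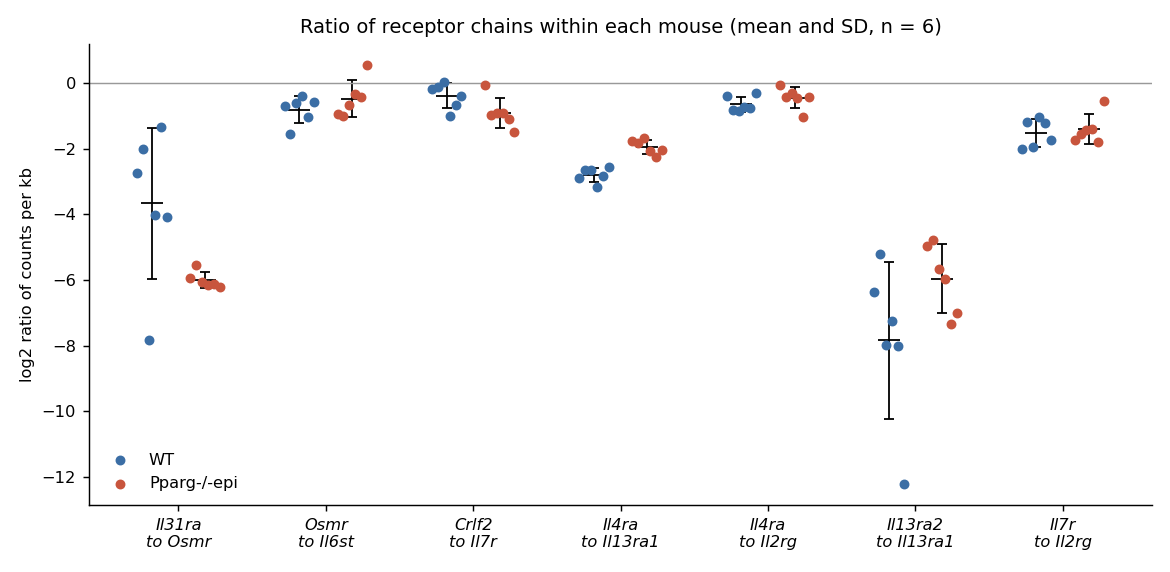
Log2 ratio of paired receptor chains (vertical axis, counts per kb) within each mouse, with points for the 6 mice of each group and bars for the mean and SD. Only the ratio of Il4ra to Il13ra1 is without overlap between the groups, and the lowest points of Il31ra to Osmr (WT replicate 3, 1 count of Il31ra) and of Il13ra2 to Il13ra1 (WT replicate 6, 0 counts of Il13ra2) rest on the pseudocount of 0.5.

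The gamma chain Il2rg (chrX:101264385-101268255, minus strand) had an adjusted p below 0.05 but a fold change below the threshold. Its lowest, median and highest levels were 20.1, 22.8 and 30.8 CPM for WT and 27.2, 33.0 and 39.2 CPM for Pparg-/-epi mice. On the log2 scale the fold change was 0.46 (SE 0.14, adjusted p = 0.0372 by edgeR), and the groups overlapped through WT replicate 3. The adjusted p of Il2rg stayed under 0.05 with WT replicate 2 or 3 or Pparg-/-epi replicate 10 or 12 left out, and was above it with any other mouse left out, up to 0.100 without Pparg-/-epi replicate 9. Il7r (chr15:9506159-9529876, minus strand) had levels of 9.72, 17.2 and 23.0 CPM for WT and 17.1, 23.1 and 36.2 CPM for Pparg-/-epi mice. The change of 0.55 on the log2 scale (SE 0.22, adjusted p = 0.113 by edgeR) missed both thresholds, and without WT replicate 2 it was 0.65 with an adjusted p of 0.0484, which counts as altered. Markers of T cells, which carry these chains, summed to 164 to 269 CPM for WT and 204 to 267 CPM for Pparg-/-epi mice, with 1 of 10 higher and 1 lower, or 1 higher and 2 lower without WT replicate 2. Thy1 weighs heavily in this sum, with means of 117 CPM for WT and 157 CPM for Pparg-/-epi mice. Cd3e fell by 0.75 (adjusted p = 0.0325), and Cd3d, Cd3g and Cd247 were at -0.53, -0.47 and -0.83 (adjusted p from 0.0556 to 0.244, edgeR). Cd5 rose by 2.28 (adjusted p = 0.00272, edgeR). These genes were named after their values were seen. Mast cell and basophil markers summed to 20.5 to 97.4 CPM for WT and 140 to 255 CPM for Pparg-/-epi mice. All 8 listed were higher, also without WT replicate 2, and Mcpt8, named too, had no row. The deposited table was filtered to genes above 0.5 CPM in at least 6 mice. Fcer1a, with counts of 0 to 1 for WT and 17 to 44 for Pparg-/-epi mice, can have passed only through the Pparg-/-epi mice. A rise of a gene listed that way follows in part from the filter. The 3 mice with the highest sum and the 3 with the most Il4ra had 1 mouse in common in each group. Whether these cells had a part in the levels of Il4ra, Il2rg and Il7r was not tested.

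Tslp (chr18:32815383-32819799, plus strand) and its receptor chain Crlf2 (chr5:109554709-109558993, minus strand) did not pass the test. Tslp was low in all mice, with a lowest, median and highest level of 1.27, 3.01 and 4.43 CPM for WT and 1.09, 1.87 and 4.12 CPM for Pparg-/-epi mice. The counts were 24 to 56 and 18 to 48, and the log2 fold change was -0.43 (SE 0.38, 95% interval -1.26 to 0.40, adjusted p = 0.504 by edgeR). Crlf2 had levels of 3.64, 4.70 and 9.02 CPM for WT and 4.34, 5.36 and 6.97 CPM for Pparg-/-epi mice. Its mean was 5.53 ± 2.03 CPM for WT and 5.49 ± 0.984 CPM for Pparg-/-epi mice (SD, n = 6 each), with a log2 fold change of -0.01 (SE 0.23, adjusted p = 0.988 by edgeR). WT replicate 2 had the most Crlf2 of all mice. The interval of Tslp holds both no change and a fall beyond the fold threshold.

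Il13ra2 (chrX:147383478-147429192, minus strand), the decoy receptor, was the least abundant member in WT mice. In Pparg-/-epi mice its mean was 2.52 CPM, and Il31ra was the lowest member at 1.08 CPM. Its levels were 1.85, 3.61, 0.533, 1.01, 0.474 and 0 CPM in WT replicates 1 to 6 and 4.32, 4.73, 2.66, 1.83, 0.723 and 0.859 CPM in Pparg-/-epi replicates 7 to 12. The 0 in WT replicate 6 allows up to 0.189 CPM, the value of 3 counts in that library and a limit for counting error only. The groups overlapped, and the log2 fold change was 1.00 (SE 0.76, adjusted p = 0.420 by edgeR), or 1.69 without WT replicate 2, still not past the test. In both groups the 3 mice with the most Il13ra2 were the 3 with the highest summed macrophage markers, which ran from 90.6 to 738 CPM for WT and from 214 to 410 CPM for Pparg-/-epi mice, with 0 of 7 markers altered. Without WT replicate 2 there was 1 of 7 higher, the complement gene C1qa (log2 fold change 1.29, adjusted p = 0.0408 by edgeR), named after its values were seen. By the SD of the log2 ratio the genes nearest to Il13ra2 were Cp (0.484), Ear2 (0.502), Msr1 (0.508), Ccr2 (0.543) and Medag (0.560), beside an SD of 1.48 for Il13ra2 itself. Msr1 encodes a macrophage scavenger receptor, Ccr2 a chemokine receptor of monocytes and Cp ceruloplasmin, and none of the 5 was altered. The match was not particular to macrophage markers. The same WT mice, replicates 1, 2 and 4, had the highest WT RIN (7.4, 8.6 and 7.1). The same Pparg-/-epi mice, replicates 7, 8 and 9, had a RIN of 8.6, 8.5 and 7.7, tied with replicate 10 at 7.7. These Pparg-/-epi mice also had the highest endothelial, melanocyte, Schwann cell, hair follicle stem cell and hair follicle inner root sheath sums of their group. The part of macrophages in the levels of Il13ra2 was not tested.

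RNA integrity was associated with 3 members beside genotype. With genotype and RIN in one edgeR fit, Tslp fell by 0.60 on the log2 scale per RIN unit (SE 0.13, adjusted p = 0.0385). Il13ra2 rose by 1.17 per unit (SE 0.24, adjusted p = 0.0385) and Il6st by 0.34 per unit (SE 0.09, adjusted p = 0.0428), also by edgeR. The RIN term passed an adjusted p of 0.05 in 13.1% of all genes and in 3 of the 10 members. In the same fit the genotype difference was -0.03 for Tslp (adjusted p = 0.956), 0.46 for Il13ra2 (adjusted p = 0.566) and -0.21 for Il6st (adjusted p = 0.517). The same 3 genes differed between the higher and lower name numbers beside genotype (higher minus lower, log2), by 1.01 for Tslp (adjusted p = 0.0463), -2.27 for Il13ra2 (adjusted p = 0.0341) and -0.73 for Il6st (adjusted p = 0.0397, edgeR), where 11.3% of all genes passed. The tests of the RIN and name number terms were chosen after the values were seen. The genes nearest to Tslp by the SD of the log2 ratio were Hspa1a (0.298), Dlx5 (0.320), Lrrfip2 (0.330), Hspb1 (0.331) and Pmvk (0.342), beside an SD of 0.675 for Tslp itself. Hspa1a and Hspb1 encode heat shock proteins, and none of the 5 was altered by genotype.

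**Figure D5:**
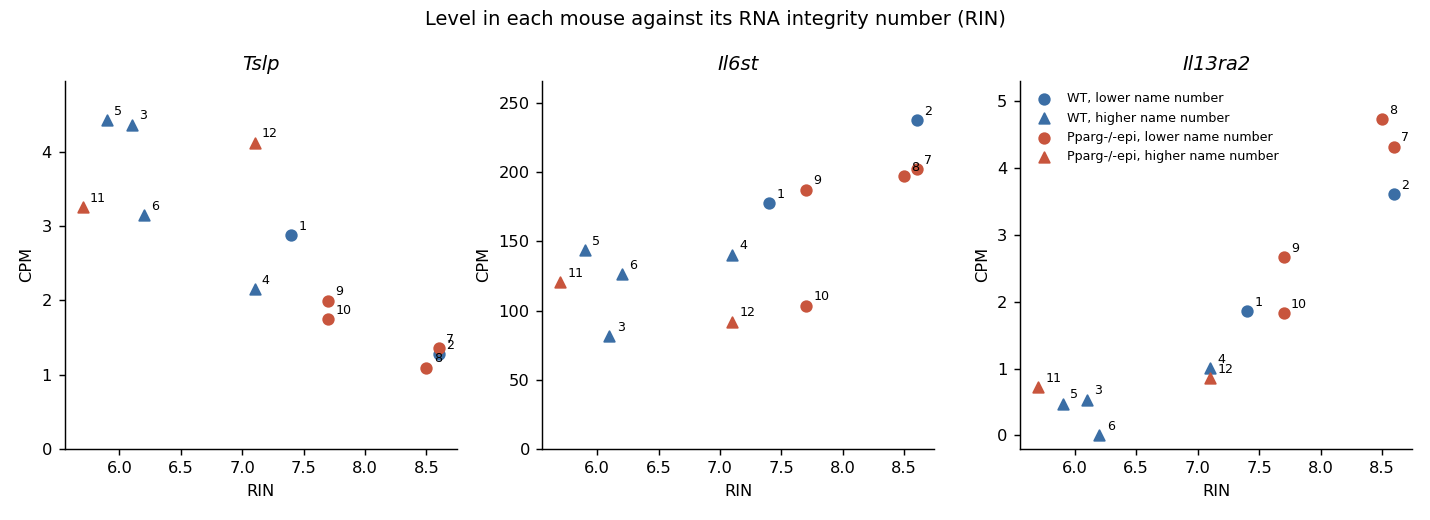
Level of Tslp, Il6st and Il13ra2 (vertical axes, CPM) against the RIN of each mouse (horizontal axis), with circles for lower and triangles for higher name numbers and colours for genotype. All 6 mice with the lower numbers lie at a RIN of 7.4 or more, where Tslp is at or below 2.88 CPM and Il13ra2 at or above 1.83 CPM.

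Per kb of transcript the order of the WT levels was Il13ra1 (64.2 RPKM, the CPM per kb), Il6st (27.7), Osmr (15.5), Il2rg (14.5), Il4ra (9.33), Il7r (5.23), Crlf2 (4.07), Il31ra (2.35), Tslp (2.28) and Il13ra2 (0.547 RPKM). Il13ra1 was above Il6st in 6 of 6 WT and 6 of 6 Pparg-/-epi mice, and Il2rg above Il4ra likewise. Osmr and Il2rg could not be ordered, with Osmr above in 3 of 6 WT and 2 of 6 Pparg-/-epi mice. Il31ra was above Tslp in 3 of 6 WT mice and in 0 of 6 Pparg-/-epi mice. Il13ra1 and Il6st had the highest means in WT mice, and Il31ra, Tslp and Il13ra2 the lowest.

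Of 16 ligands and upstream cytokines named for these receptors, 6 were listed, and Il4, Il13, Il31 and Osm had no row in the filtered table and were not analysed here. Il33, an alarmin of epithelial cells, fell by 0.86 (SE 0.25, adjusted p = 0.0331), and Il15, a cytokine that supports T and natural killer cells, fell by 1.02 on the log2 scale (SE 0.28, adjusted p = 0.0274, edgeR), and 0 of 6 rose. Il7, the ligand of Il7r, was at 0.66 in log2 fold change (adjusted p = 0.332), and Lif 0.90 (adjusted p = 0.147), Clcf1 0.76 (adjusted p = 0.0737) and Il11 0.41 (adjusted p = 0.525), all from edgeR. Of 5 other partners of the gamma chain 2 rose. Il2ra, a chain of the IL-2 receptor, had a log2 fold change of 1.00 (SE 0.29, adjusted p = 0.0362), and Il21r, which binds IL-21, of 2.34 (SE 0.34, adjusted p = 9.42e-04, edgeR), from counts of 2 to 7 for WT and 11 to 37 for Pparg-/-epi mice. The expression filter could be met for Il21r through the Pparg-/-epi mice alone, so its rise follows in part from the filter. Of 5 other gp130 family chains 0 were altered, and without WT replicate 2 there were 2 higher and 1 lower. Over all genes 5.19% were higher and 5.08% lower with all mice, and more were called without WT replicate 2.

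Downstream, 0 of 15 JAK, STAT and feedback genes were altered, with a median log2 fold change of 0.07, and Stat6, which IL-4 and IL-13 receptors use, was at 0.17 (SE 0.07, adjusted p = 0.102 by edgeR). Of 11 listed type 2 response genes 3 rose and 1 fell. The chemokines Ccl17 and Ccl22, which attract T helper 2 cells, rose by 1.27 (adjusted p = 0.0430) and 1.64 (adjusted p = 0.00297), and the matrix protein gene Postn by 2.00 (adjusted p = 0.0199). Arg1, which encodes arginase, fell by 1.79 (adjusted p = 0.0128), all on the log2 scale by edgeR. Ccl17 rests on few reads, with counts of 3 to 17 for WT and 10 to 33 for Pparg-/-epi mice. The expression filter could be met for Ccl17 through the Pparg-/-epi mice alone, so its rise may follow in part from the filter. Of 15 listed itch mediators and receptors 2 rose, Edn1 by 2.51 (SE 0.36, adjusted p = 9.42e-04) and Nppb by 3.90 (SE 0.76, adjusted p = 0.00487, edgeR). Both encode peptides that itch pathways use, endothelin 1 and a natriuretic peptide, and Nppb had 0 to 10 counts among WT and 24 to 97 among Pparg-/-epi mice. The expression filter could be met for Nppb through the Pparg-/-epi mice alone, so its rise follows in part from the filter. Of 16 regulators of Tslp in keratinocytes 1 rose, the vitamin D receptor gene Vdr, with a log2 fold change of 1.01 (SE 0.23, adjusted p = 0.0120 by edgeR). Without WT replicate 2 the type 2 list had 5 higher and 1 lower, the itch list 4 higher, the gamma chain list 3 higher and the Tslp regulators 1 higher and 1 lower. Over all 14533 genes 754 (5.19%) were higher and 739 (5.08%) lower with all mice. Without WT replicate 2 these were 1303 and 946, so a gain in a list was not particular to it.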

How the data were processed

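Libraries were prepared from poly(A) RNA of scraped epidermis, 1 per mouse. Per the labels the authors aligned reads to mm10 with STAR 2.5.2b and counted them per gene with featureCounts of Subread 1.5.1, and the deposited table holds raw counts that they had filtered for low expression: every gene was above 0.5 CPM in at least 6 mice. Columns were matched to mice by their names, for replicates 11 and 12 through the run sheet among the study's supplementary files. Rows without a symbol (2800) were left out. Counts were tested with edgeR 4.0.16 (limma 3.58.1, R 4.3.3) under TMM scaling with genotype alone, and CPM were scaled the same way. RPKM divide by the listed gene length. DESeq2 1.42.0, other scalings, filters, covariates, each sex alone and each mouse left out were alternatives. The scripts were tested on simulated data. Figures used matplotlib 3.10.9 in Python 3.11.15. The 10 genes and all lists were chosen with earlier results of these data known. Named genes were all members, at most 4 altered genes of each pathway list, ligands of the members, the 5 genes nearest in pattern to Il31ra, Il13ra2 and Tslp, and listed genes within 500 kb of Il31ra. Replicates are separate mice.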

Additional observations from a re-analysis of the deposited data

How the results depend on the processing

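Il31ra was altered in every alternative except the males alone, and Il4ra kept its direction in all 24. The number of members altered was 2, and it was 1 in females alone, 0 in males alone, 1 with RIN as a covariate and 1 with name number blocks, with a range of 1 to 3 when each mouse was left out (1 without Pparg-/-epi replicate 7 or 9, 3 without WT replicate 2). The count of altered genes was 1493, with 651 in females alone and 18 in males alone, where fewer mice were fitted, and ranged from 1116 to 2249 with each mouse left out, the highest without WT replicate 2. Over 240 values of single members 232 kept their side of the thresholds, 7 dropped below and 1 rose above, and no called value changed sign. DESeq2 called 1787 genes and the same 2 members. No paired analysis was possible because the replicate numbers run from 1 to 12 without a number in both groups, and of the numbers in the mouse names only 222 is in both (WT replicate 2 and Pparg-/-epi replicate 10). Tslp, Il13ra2 and Il31ra in Pparg-/-epi mice rest on few reads, which limits what their values can show.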

Other observations

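Of 7 markers named for group 2 innate lymphoid cells, which respond to TSLP and IL-33, 5 were listed, and the genes below were chosen after their values were seen. In WT mice the mean was 878 CPM for Gata3, 3.86 CPM for Il1rl1 and 1.95 CPM for Icos. Gata3 RNA cannot be assigned to these cells in a bulk sample. Gata3, a transcription factor of type 2 lymphocytes that keratinocytes also express, had a log2 difference of -0.98 and fell (adjusted p = 0.0238, edgeR quasi-likelihood test). Icos, a costimulatory receptor of lymphocytes, rose by 1.59 (adjusted p = 0.0125, edgeR), and Il1rl1, the IL-33 receptor, was at -0.32 (adjusted p = 0.739, edgeR). Il17rb was at -0.52 (adjusted p = 0.0691) and Areg at 0.80 (adjusted p = 0.215, both edgeR). Of 7 Langerhans and dendritic cell markers 2 rose, or 3 without WT replicate 2, and 0 fell. Over all genes 5.19% rose with all mice, and more did without WT replicate 2. Ccr7, the receptor that guides these cells to lymph nodes, rose by 2.07 (adjusted p = 0.00968) and Epcam by 1.04 (adjusted p = 3.00e-04, edgeR). Cd207 was at 0.00 (adjusted p = 0.996), H2-Aa at -0.13 (adjusted p = 0.741), Cd74 at -0.04 (adjusted p = 0.915), Flt3 at -0.11 (adjusted p = 0.887) and Itgax at 0.50 (adjusted p = 0.0526), all by edgeR. Counts of Ccr7 were 2 to 15 for WT and 20 to 35 for Pparg-/-epi mice. The expression filter could be met for Ccr7 through the Pparg-/-epi mice alone, so its rise follows in part from the filter.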
